A study of Homo sapiens with 9 samples.

Results

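The genes described are 57 genes of the G2 phase and mitosis, a list of symbols drawn up for what the encoded proteins do. They were found by matching the gene column of the deposited RNA-seq tables to those symbols. All 57 were present, and all 57 passed the filter on low values, of 11189 genes that passed it among 23201 named features. BUB1B stood in a joint row with its overlapping neighbour PAK6, so its value belongs to both genes. CA46 is an established human B cell line from a Burkitt lymphoma, in which a translocation drives MYC. The cells had received, for 48 h, a virus with a non-targeting shRNA (control) or an shRNA against MYC (knockdown), and for 20 h either PBS or 10 mM dimethyl succinate (DMS), a cell-permeable ester of the metabolite succinate. Each of the 4 combinations of virus and medium was represented by 1 library, so every group carried virus and no pairwise comparison has a replicate. The knockdown rests on the single shRNA label and on 1 cell line.

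Mitotic entry depends on the kinase CDK1 bound to cyclin A or cyclin B. CDC25 phosphatases switch the complex on, and the Polo and Aurora kinases act beside it on centrosomes, chromosomes and kinetochores. The spindle checkpoint holds the anaphase-promoting complex until every chromosome is attached to the spindle. The complex then marks securin and cyclin B for destruction, separase opens cohesin, and the midzone proteins complete cell division. Transcription of many of these genes peaks in G2 and is known to run through the MuvB complex with B-MYB (MYBL2) and FOXM1 at an element called CHR (cell cycle genes homology region), and through NF-Y at CCAAT boxes. MYC with its partner MAX binds the E-box CACGTG. In bulk RNA, fewer cells in G2 and mitosis and less RNA per cell cannot be told apart.

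The promoters of 7 members are shown because these genes either are textbook examples of this control (CCNB1, CCNB2, PLK1, CDC20) or had the lowest ratios of knockdown to control (MAD2L1, CDC25A) or the highest level (CKS2). Each window runs from 250 bases before the annotated start to 50 bases after it, 5′ to 3′ on the gene's strand, from RefSeq on GRCh38.p14. Capitals mark the CCAAT box (CCAAT, or ATTGG on the other strand), the CHR letters (TTTGAA, or on the other strand TTCAAA), the related TTTAAA and the E-box CACGTG. The windows are chr5:69166900-69167199 on the plus strand for CCNB1, chr15:59104896-59105195 plus for CCNB2, chr9:89310945-89311244 plus for CKS2, chr16:23678639-23678938 plus for PLK1, chr1:43358731-43359030 plus for CDC20, chr4:120066799-120067098 minus for MAD2L1 and chr3:48188368-48188667 minus for CDC25A.
CCNB1: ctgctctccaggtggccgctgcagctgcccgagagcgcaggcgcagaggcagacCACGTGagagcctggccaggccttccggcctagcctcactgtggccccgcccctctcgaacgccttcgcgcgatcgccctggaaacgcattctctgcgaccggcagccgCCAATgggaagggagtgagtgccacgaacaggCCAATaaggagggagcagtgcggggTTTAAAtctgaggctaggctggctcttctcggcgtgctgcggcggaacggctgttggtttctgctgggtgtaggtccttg
CCNB2: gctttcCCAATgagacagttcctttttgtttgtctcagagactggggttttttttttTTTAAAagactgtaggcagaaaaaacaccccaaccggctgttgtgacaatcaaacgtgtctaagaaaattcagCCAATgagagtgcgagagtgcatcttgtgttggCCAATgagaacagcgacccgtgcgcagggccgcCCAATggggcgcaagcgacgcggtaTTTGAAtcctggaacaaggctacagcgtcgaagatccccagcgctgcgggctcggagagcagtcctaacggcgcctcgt
CKS2: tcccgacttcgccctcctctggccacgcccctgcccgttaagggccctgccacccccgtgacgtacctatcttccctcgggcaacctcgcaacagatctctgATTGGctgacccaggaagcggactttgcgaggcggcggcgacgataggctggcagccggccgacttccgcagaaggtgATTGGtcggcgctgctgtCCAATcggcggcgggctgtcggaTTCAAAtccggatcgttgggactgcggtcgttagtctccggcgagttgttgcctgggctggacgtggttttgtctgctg
PLK1: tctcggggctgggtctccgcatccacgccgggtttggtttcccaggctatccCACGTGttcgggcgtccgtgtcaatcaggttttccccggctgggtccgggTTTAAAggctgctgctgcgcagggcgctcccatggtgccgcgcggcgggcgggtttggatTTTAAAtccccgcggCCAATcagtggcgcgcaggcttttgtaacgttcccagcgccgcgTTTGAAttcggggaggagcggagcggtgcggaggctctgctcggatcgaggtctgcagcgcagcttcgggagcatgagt
CDC20: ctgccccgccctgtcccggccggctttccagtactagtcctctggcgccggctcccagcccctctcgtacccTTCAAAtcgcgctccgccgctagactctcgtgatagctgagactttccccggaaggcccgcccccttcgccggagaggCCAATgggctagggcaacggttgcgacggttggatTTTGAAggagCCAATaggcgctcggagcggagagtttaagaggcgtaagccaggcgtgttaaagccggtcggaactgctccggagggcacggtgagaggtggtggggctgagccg
MAD2L1: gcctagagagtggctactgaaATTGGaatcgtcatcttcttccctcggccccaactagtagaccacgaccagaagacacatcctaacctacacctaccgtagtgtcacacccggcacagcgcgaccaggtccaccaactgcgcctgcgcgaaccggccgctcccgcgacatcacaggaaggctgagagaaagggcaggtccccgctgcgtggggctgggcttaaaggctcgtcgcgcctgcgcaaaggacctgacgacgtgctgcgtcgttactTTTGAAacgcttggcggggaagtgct
CDC25A: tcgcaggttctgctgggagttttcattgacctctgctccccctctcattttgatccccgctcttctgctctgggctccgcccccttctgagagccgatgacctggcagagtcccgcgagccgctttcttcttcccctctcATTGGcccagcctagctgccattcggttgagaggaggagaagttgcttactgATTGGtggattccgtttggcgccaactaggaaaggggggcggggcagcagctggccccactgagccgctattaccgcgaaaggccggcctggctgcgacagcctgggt

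Position is counted from the annotated start, with negative values upstream, and the matches nearest the start are described before the others. CCNB2 held CCAAT boxes beginning at -120, -87 and -54, evenly spaced before a TTTGAA at -29. PLK1 had 1 CCAAT box at -73 and a TTTGAA also at -29. CKS2 carried the reverse-complement TTCAAA at -29, behind CCAAT boxes at -70 and -52. In CCNB1 the CCAAT boxes lay at -87 and -55 and the matching place was taken by TTTAAA at -30. CDC20 had a TTTGAA at -65 and a CCAAT box at -55, both in the proximal promoter. Farther upstream lay a CCAAT box at -244 and TTTAAA at -193 in CCNB2, a CCAAT box at -148 in CKS2, TTTAAA at -148 and -88 in PLK1, and in CDC20 a CCAAT box at -100 and TTCAAA at -178. CCNB1 and PLK1 also held CACGTG, at -196 and -198. The promoters of the members lowest in the knockdown had another layout: MAD2L1 held its only TTTGAA downstream of the start, at position 24, with a CCAAT box far upstream at -229, and CDC25A held CCAAT boxes at -110 and -58 and no match to TTTGAA or TTCAAA.

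RefSeq windows were found for 49 of the 57 members. Several windows were listed for 10 members, and the first listed window of each gene was used. They were not found for AURKA, BIRC5, TPX2, BUB3, TTK, UBE2C, RACGAP1 and FOXM1. The CHR letters TTTGAA or TTCAAA lay within 50 bases of the start in 27 of 49 members (55.1%), against 2.88% of 8166 genes that passed the filter and had a window, and 4.67% of 27305 windows of all genes. Anywhere in the 300 bases the count was 34 of 49 (69.4%), against 9.83% of the genes that passed the filter. CCAAT or ATTGG was found in 35 of 49 windows (71.4%), against 37.4%, and at least 2 copies in 22 (44.9%), against 14.3%. A CCAAT box together with the CHR letters or with TTTAAA near the start occurred in 23 members (46.9%) and in 2.03% of the genes that passed the filter. The E-box CACGTG was in 6 of 49 member windows (12.2%), a share close to the 10.7% of the genes that passed the filter. It lay within 50 bases of the start in 0 members, against 4.43% of the genes that passed the filter, a small share as well. Both strands were searched. Matches that share bases were counted separately, and this occurred in 4 members (CDCA8, HMMR, MKI67 and PTTG1). A match is a description of the letters and is no evidence that a factor is bound.

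**Figure D1:**
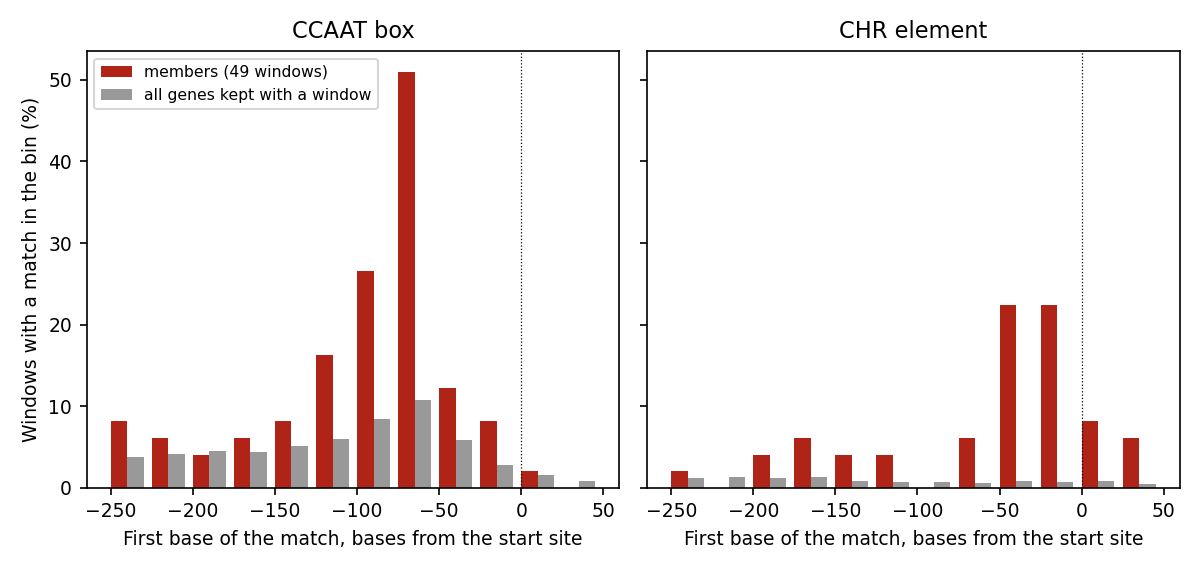
Share of promoter windows in which a motif begins, in bins of 25 bases by distance from the annotated start, for the 49 members with a window and for the 8166 genes that passed the filter. CCAAT boxes of members begin most often between -75 and -51 (25 of 49 windows, 51.0%, against 10.7%), and TTTGAA or TTCAAA in the 2 bins from -50 to -1 (22.4% each, against 0.894% and 0.674%).

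Within the list, members with the CHR letters were not the lower ones in the knockdown. In PBS the median log2 ratio of knockdown to control was -1.02 for the 27 members with TTTGAA or TTCAAA near the start and -1.32 for the others with a window. For CCAAT boxes anywhere in the window the medians were -1.24 with and -0.85 without. For CCAAT boxes within 50 bases of the start the direction was reversed. There the medians were -0.97 for the 10 members with a box and -1.17 for the others with a window. For the E-box CACGTG anywhere in the window the medians were -1.54 for the 6 members with it and -1.15 for the others with a window. These medians are descriptions within the list, and no test was made of them.

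MYC, the target of the shRNA, stood at 1868 FPKM (a read count divided by transcript length and library depth) in control cells in PBS and 1651 FPKM in control cells in DMS. It stood at 17.1 FPKM in knockdown cells in PBS and 625 FPKM in knockdown cells in DMS. The libraries therefore matched their labels, and MYC was at 0.913% of control in PBS but at 37.9% of control in DMS, so the knockdown libraries differ in MYC as well as in medium. Depth relative to the control in PBS was 1.07 to 1.11 from the ratios of low values. A separate estimate from the step size gave 21.6 to 24.6 fragments per kilobase for each FPKM. It used only steps between 16 and 30, so it could not fall outside that range and is a rough guide. By that estimate the lowest member value in any library corresponded to 26.1 fragments per kilobase. All 8 B cell markers passed the filter, and their summed level was 5077 FPKM in control PBS, 3380 in control DMS, 16317 in knockdown PBS and 9702 in knockdown DMS. Of 10 myeloid markers 4 passed, with summed levels of 124, 88.4, 248 and 184 FPKM in the same order. Within that sum AIF1 was at 97.9 FPKM in control PBS and 74.3 in knockdown PBS, while LYZ was at 8.31 and 48.7, CD68 at 9.33 and 58.0 and ITGAM at 8.13 and 67.0, and FCGR3A, S100A8, S100A9 and MPO were listed at 0 throughout. Of 7 T cell markers 3 passed (8.49 to 10.6 FPKM in all), with CD8A and CD8B at 0, and of 5 epithelial markers 1 passed, with KRT8 and KRT18 at 0. The part of the shifts in B cell and myeloid markers in the results below was not tested.

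In PBS the whole list lay lower in the knockdown. All 57 members had a log2 ratio of knockdown to control below 0, whereas 50.2% of all genes did, and 37 of 57 were at least 2-fold lower, against 17% of all genes. No member was at least 2-fold higher, against 14.4% of all genes. Ratios were taken on rescaled FPKM plus 1. The median ratio was -1.17 over the members and -0.00 over all genes, and the range ran from MAD2L1 at -2.68 to CDC25B at -0.21. Knockdown cells kept a median of 40.0% of the control FPKM of a member, from 13.4% for CDC25A to 85.8% for CDC25B. The summed FPKM of the 57 genes was 3177 in control PBS, 2909 in control DMS, 1036 in knockdown PBS and 1565 in knockdown DMS. These are single libraries with no replicate check.

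**Figure D2:**
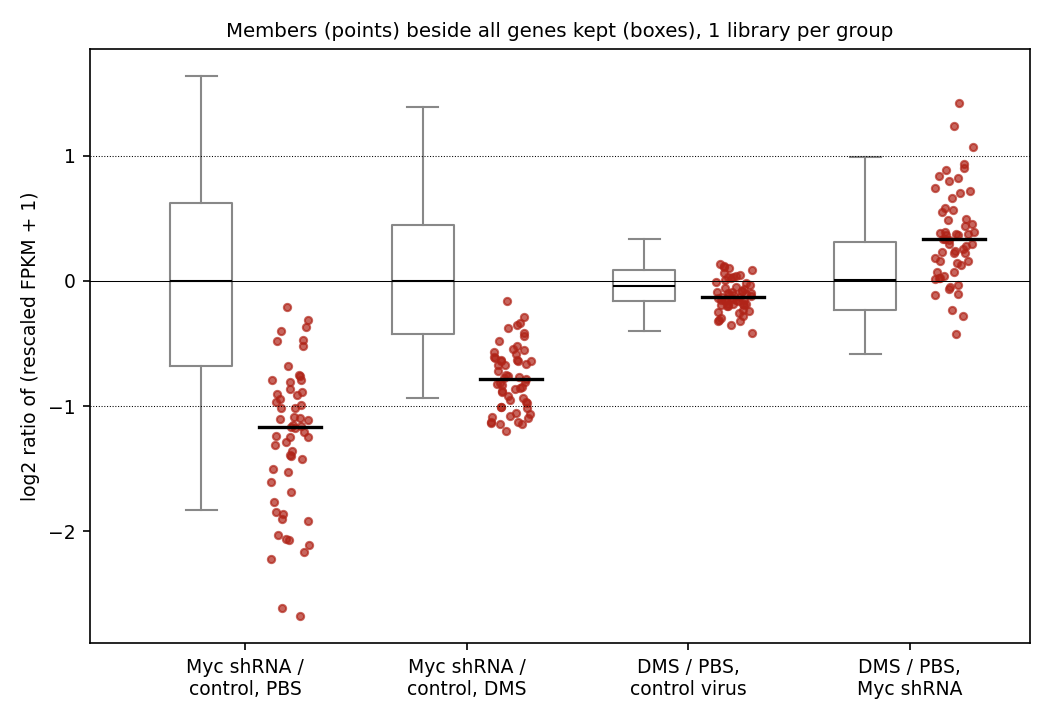
Log2 ratios of the 57 members (points) in the 4 pairwise comparisons, beside the distribution over all genes that passed the filter. Members lie below 0 in both knockdown comparisons (medians -1.17 in PBS and -0.78 in DMS), close to 0 for DMS in control cells (-0.13) and mostly above 0 for DMS in knockdown cells (0.34).

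CDK1 and the proteins that switch it on or bind it form the opening group, in which 7 of 9 genes passed the 2-fold rule in PBS (median -1.39). CDK1, the mitotic kinase itself, was at 50.9 FPKM in control PBS, 46.4 in control DMS, 18.7 in knockdown PBS and 26.6 in knockdown DMS (hg19 chromosome 10, 62538089 to 62554610). CCNB1, which encodes cyclin B1, was at 104, 96.6, 28.1 and 49.6 FPKM in that order (chromosome 5, 68462837 to 68474070). In both genes the knockdown libraries were well below the controls, with the knockdown in DMS between the knockdown in PBS and the controls. CKS2, a small subunit that docks CDK1 to its substrates, was the most abundant member at 634, 557, 151 and 318 FPKM (chromosome 9, 91926110 to 91931618). The 3 CDC25 phosphatases, which remove the inhibitory phosphates from CDKs, did not move alike. CDC25A was at 28.2, 23.4, 3.77 and 10.2 FPKM (chromosome 3, 48198667 to 48230115), a ratio of -2.61 in PBS. CDC25B stood at 26.6, 27.1, 22.8 and 21.1 FPKM (chromosome 20, 3767419 to 3786768), a ratio of -0.21, and CDC25C at 5.03, 5.19, 3.21 and 3.92 FPKM. The difference between these phosphatases has no test. Cyclin A2 (CCNA2) had a ratio of -1.92, cyclin B2 (CCNB2) of -1.11 and the CDK phosphatase CDKN3 of -1.36.

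The Polo and Aurora kinases with the chromosomal passenger complex had the lowest median of the larger groups, at -1.61, and 6 of 8 were at least 2-fold lower. PLK1, the Polo kinase of mitotic entry and spindle assembly, was at 129 FPKM in control PBS, 116 in control DMS, 26.8 in knockdown PBS and 52.2 in knockdown DMS (chromosome 16, 23690143 to 23724821). PLK4, the relative that starts centriole duplication, was at 6.77, 5.07, 3.59 and 2.91 FPKM, a ratio of -0.76, and its knockdown value was lower in DMS than in PBS. AURKA, the centrosomal Aurora kinase, was at 55.5, 48.1, 16.5 and 24.7 FPKM. AURKB, the kinase of the passenger complex, was at 108, 102, 29.0 and 48.4 FPKM, and its partner survivin (BIRC5) at 61.2, 64.0, 15.6 and 29.7 FPKM. Within that complex the ratios were -1.86 for AURKB, -1.90 for BIRC5 and -1.53 for borealin (CDCA8), while the scaffold INCENP was at -0.99. TPX2, which activates AURKA on the spindle, was at -1.31.

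Among the spindle checkpoint and anaphase genes 8 of 9 were at least 2-fold lower in PBS (median -1.29). MAD2L1, the checkpoint protein that captures the activator CDC20, had the lowest ratio of the list. It was at 73.1 FPKM in control PBS, 65.5 in control DMS, 10.6 in knockdown PBS and 30.1 in knockdown DMS (chromosome 4, 120980579 to 120988013). CDC20 itself was at 137, 123, 31.8 and 60.4 FPKM (chromosome 1, 43824626 to 43828873). UBE2C, the ubiquitin-conjugating enzyme of the anaphase-promoting complex, was at 260, 220, 59.5 and 99.9 FPKM. In PBS the knockdown cells kept 14.5% of the control level of MAD2L1 and 23.2% of that of its target CDC20. The checkpoint kinases BUB1 and TTK had ratios of -1.29 and -1.01, BUB3 was at -1.10, and the joint row of BUB1B, encoding BubR1, was at -2.03. Securin (PTTG1) was at 41.7% of control in PBS, and separase (ESPL1), the protease it holds, was at 16.6, 17.0, 9.43 and 8.97 FPKM, a ratio of -0.75. The near-identical copies PTTG2 and PTTG3P were listed at 0 in all libraries.

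**Figure D3:**
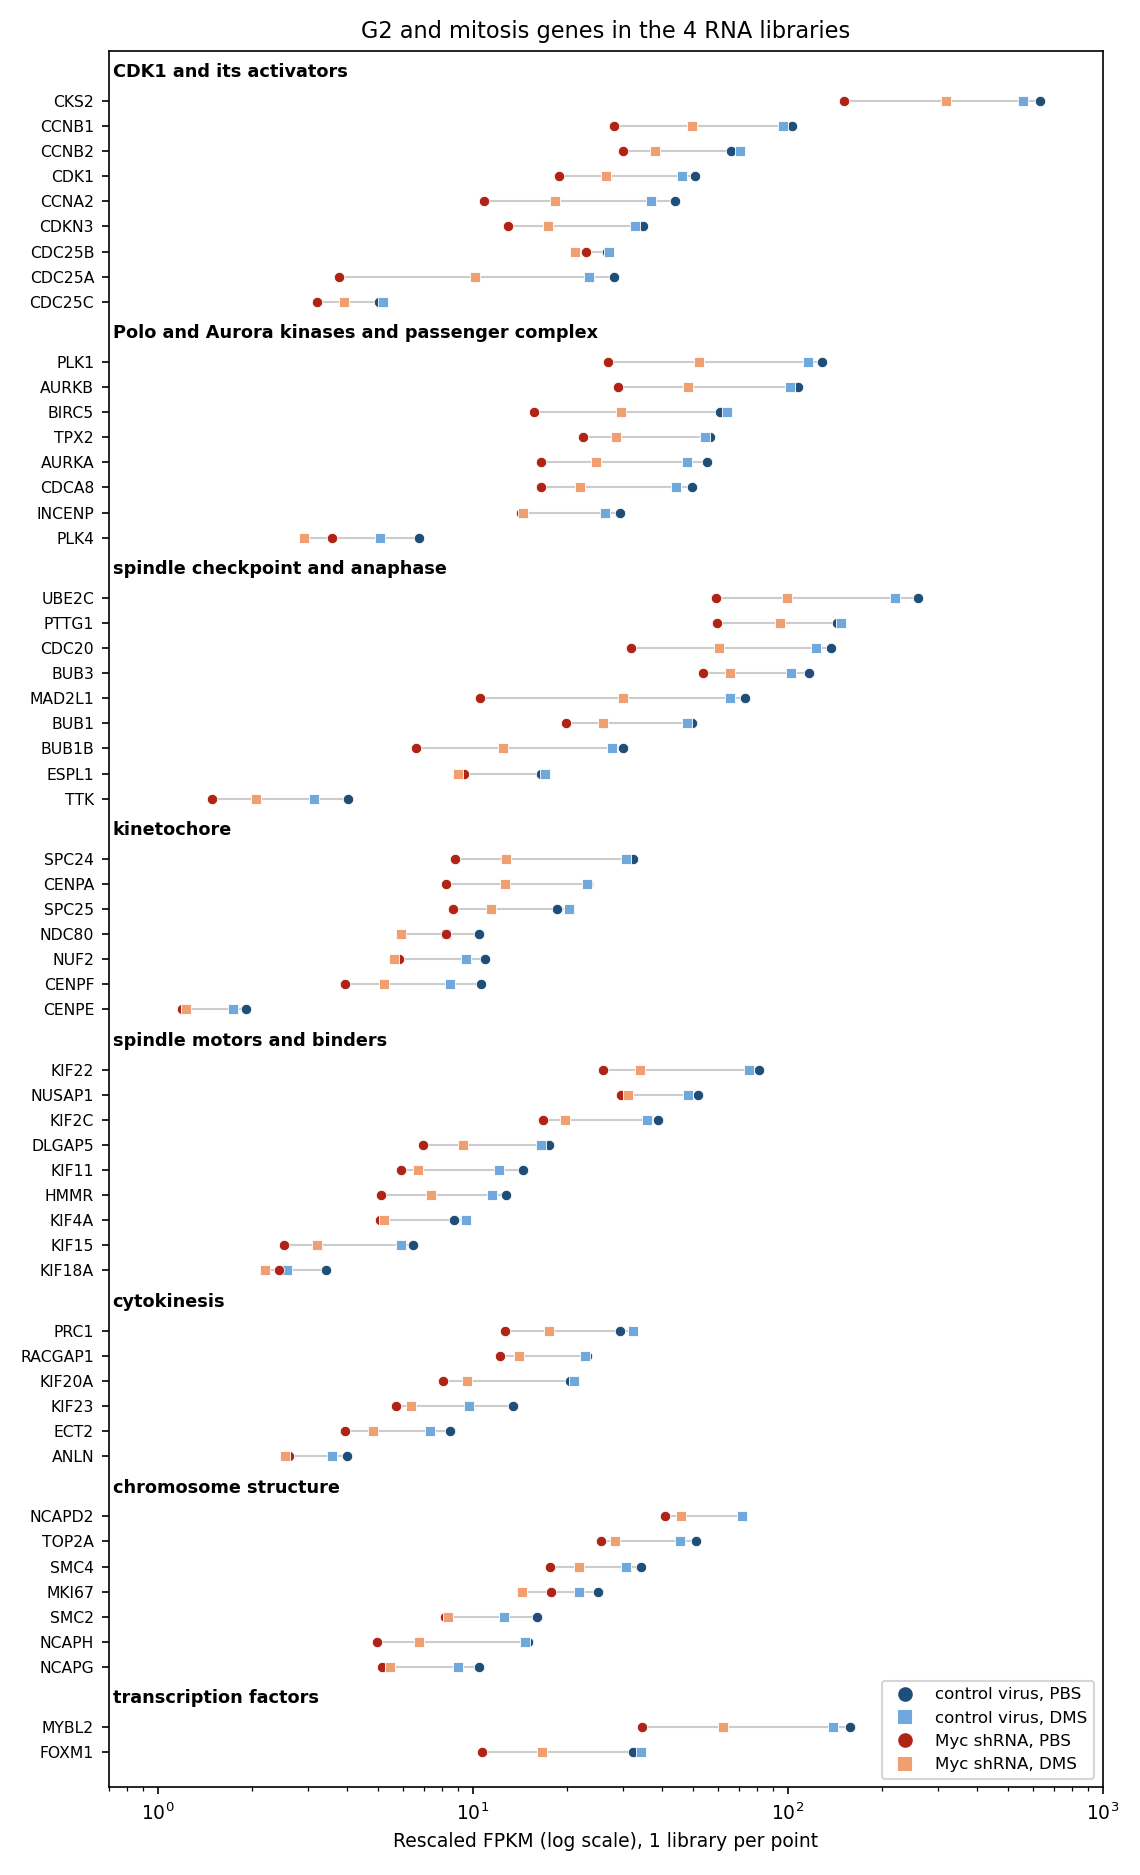
Rescaled FPKM (log axis) of each of the 57 members in each of the 4 libraries, grouped by role and ordered by mean level, with 1 point per library. The knockdown libraries lie to the left of both controls in 56 of 57 members, and the knockdown in DMS lies to the right of the knockdown in PBS in 49.

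The kinetochore genes, which build the plate that attaches chromosomes to microtubules, were more mixed, with 4 of 7 at least 2-fold lower and a median of -1.02. The NDC80 complex shows the spread within a single structure, since its 4 subunits assemble in equal numbers. SPC24 was at 32.3 FPKM in control PBS, 30.7 in control DMS, 8.79 in knockdown PBS and 12.8 in knockdown DMS, a ratio of -1.76. SPC25 had a ratio of -1.02 and NUF2 of -0.81. NDC80 was at 10.5, 8.22, 8.26 and 5.92 FPKM, a ratio of -0.31, and was the only member in which a knockdown library (PBS) was not below both controls. In the other 56 members both knockdown libraries were below both controls, which held for 41.9% of all genes. The histone H3 variant of centromeres, CENPA, was at -1.39. CENPF had a ratio of -1.24, and the kinesin CENPE, the least abundant member, was at 1.90, 1.73, 1.20 and 1.23 FPKM.

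Spindle motors and binders had a median of -1.16 with 6 of 9 at least 2-fold lower. KIF22, a kinesin that pushes chromosome arms, was both the most abundant and the lowest in ratio, at 81.0, 75.5, 26.0 and 33.9 FPKM (-1.60). KIF18A, which damps chromosome movement at the metaphase plate, was at 3.44, 2.57, 2.43 and 2.19 FPKM (-0.37), so its knockdown values were close to the control in DMS. KIF11, the motor that separates the spindle poles, was at -1.16 and KIF15, which can share that task, at -1.09. KIF2C, a microtubule depolymerase, was at -1.17 and the chromokinesin KIF4A at -0.68. Its copy KIF4B was listed at 0. The microtubule binders HMMR, DLGAP5 and NUSAP1 were at -1.18, -1.21 and -0.79.

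In cytokinesis 3 of 6 genes were at least 2-fold lower (median -1.02). PRC1, the bundler of midzone microtubules, was at 29.4 FPKM in control PBS, 32.4 in control DMS, 12.7 in knockdown PBS and 17.5 in knockdown DMS. KIF20A, a midzone kinesin, had the lowest ratio of the group at 20.5, 21.0, 8.06 and 9.60 FPKM (-1.24). ANLN, a scaffold of the contractile ring, was at 4.01, 3.57, 2.61 and 2.53 FPKM (-0.47). The centralspindlin partners KIF23 and RACGAP1 were at -1.10 and -0.86, and ECT2, the exchange factor they recruit, at -0.94.

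Chromosome structure was the group with the fewest members past the 2-fold rule, 1 of 7, with a median of -0.90. That member was the condensin I subunit NCAPH, at 15.0, 14.6, 4.96 and 6.78 FPKM (-1.42). The other condensin genes stayed within a narrow band, with NCAPD2 at 71.7, 71.9, 41.0 and 45.9 FPKM (-0.79), NCAPG at -0.90, SMC2 at -0.89 and SMC4 at -0.91. TOP2A, the topoisomerase that untangles sister chromatids, was at 51.1, 45.7, 25.7 and 28.4 FPKM (-0.97). MKI67, the source of the proliferation antigen Ki-67, was at 25.1, 21.8, 17.7 and 14.4 FPKM (-0.48), with its lowest value in the knockdown in DMS.

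Both transcription factors of the list were at least 2-fold lower in each medium. FOXM1 was at 32.3 FPKM in control PBS, 34.3 in control DMS, 10.7 in knockdown PBS and 16.6 in knockdown DMS (chromosome 12, 2945982 to 2998691). MYBL2 was at 158, 139, 34.4 and 62.4 FPKM (chromosome 20, 42295659 to 42345136). Their ratios in PBS were -1.50 and -2.16.

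In DMS the members again all lay below control, but nearer to it. All 57 ratios were below 0, against 50.3% of all genes, and 14 were at least 2-fold lower, against 3.59%, with 0 at least 2-fold higher, against 9.63%. The 14 were CDC25A, PLK1, AURKB, BIRC5, BUB1B, MAD2L1, CDC20, UBE2C, SPC24, KIF22, KIF20A, NCAPH, FOXM1 and MYBL2, and all 14 were also at least 2-fold lower in PBS. The median ratio was -0.78, and the range ran from SPC24 at -1.20 to KIF18A at -0.16. With the threshold at 1.5-fold, 44 members were lower in DMS, against 17.1% of all genes. With the values as deposited, the 2-fold counts were 43 in PBS and 19 in DMS, against 19.9% and 6.03% of all genes.

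The spread between members was narrower in DMS. The SD of the ratios was 0.57 in PBS and 0.25 in DMS for the members, and 1.05 and 0.72 for all genes. Across the 57 genes the ratios in the 2 media, which share no library, had a Pearson r of 0.85 and a Spearman rho of 0.86, against 0.93 and 0.96 across all 11189 genes, and genes are not independent replicates. Members between the quartiles of the list in PBS (-1.60 to -0.89, 29 genes) had a median of -0.77 in DMS. The 1391 genes of the whole table in that range had a median of -0.66. As a percentage of control, 52 of 57 members were higher in DMS than in PBS, against 56% of all genes, with CDC25B, ESPL1, NDC80, KIF4A and MKI67 as the exceptions. MYC differed between the knockdown libraries together with the medium, so their parts cannot be told apart.

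**Figure D4:**
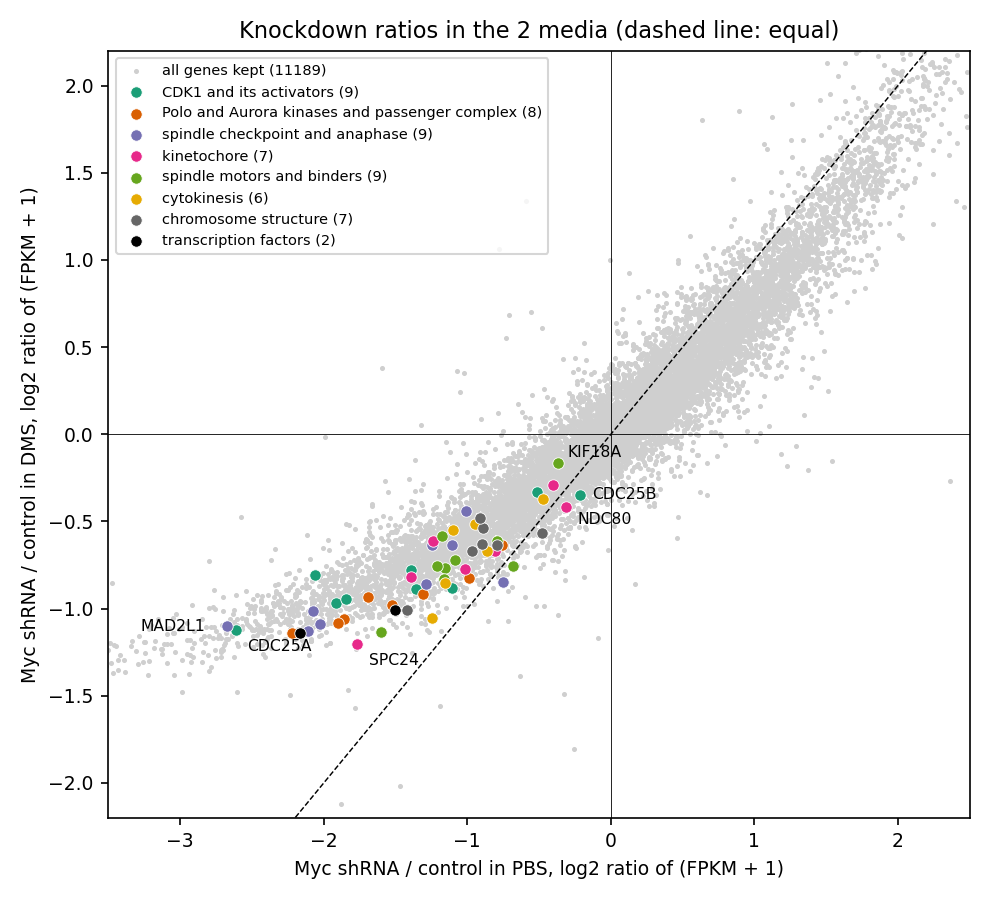
Log2 ratio of knockdown to control in DMS against that in PBS for all genes that passed the filter (grey; genes beyond the axis limits are not drawn) and the 57 members (coloured by role), with a dashed line of equality. Members lie in the lower left, mostly above the line, with MAD2L1 at -2.68 in PBS and -1.10 in DMS and SPC24 lowest in DMS at -1.20.

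DMS in control cells left the list close to where it was, as it did most genes. No member was at least 2-fold lower or higher, against 0.393% and 0.0804% of all genes, so this count is near the background. The ratios of DMS to PBS ran from KIF23 at -0.42 to PRC1 at 0.14. Their median was -0.13, against -0.04 over all genes, and 45 of 57 were below 0, against 58.6% of all genes.

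In knockdown cells DMS went with higher values for most members. The ratio of DMS to PBS was above 0 in 49 of 57, against 50.5% of all genes, and the median was 0.34. MAD2L1 (1.42), CDC25A (1.23) and CKS2 (1.07) were at least 2-fold higher. That is 5.26% of the members and 4.93% of all genes, so the share past 2-fold is near the background. This comparison shares the knockdown library in PBS with the knockdown comparison in PBS, so a low value there enters both ratios. The checkpoint and anaphase group had a median of 0.66, the CDK1 group of 0.48, the Polo and Aurora group of 0.47, the kinetochore group of 0.34, the motors of 0.22, cytokinesis of 0.20 and chromosome structure of 0.14. At the other end NDC80 (-0.42), MKI67 (-0.28), PLK4 (-0.23), CDC25B (-0.11), KIF18A (-0.10), ESPL1 (-0.06), NUF2 (-0.05) and ANLN (-0.03) were below 0. From high to low, 39 members followed the order control PBS, control DMS, knockdown DMS, knockdown PBS, which 19.5% of all genes did.

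The only test used all 4 libraries in a single limma fit with an effect of virus and an effect of medium. That left 1 degree of freedom per gene for the spread. limma combined this spread with one estimated over all genes, which counted as 5.04 degrees of freedom. The SE and p-value of a gene thus rest mostly on the spread of other genes. Over both media 53 of 57 members fell with the knockdown and 0 rose at an adjusted p (Benjamini-Hochberg over 11189 genes) under 0.05, against 27.8% of all genes that fell and 27.8% that rose. The median change of the members was -0.96. MAD2L1 had the largest drop of the list, with a log2 change of -1.89 (SE 0.36, adjusted p = 0.0082). The change was -1.87 for CDC25A (SE 0.34, adjusted p = 0.0073), -1.68 for PLK1 (SE 0.28, adjusted p = 0.0064) and -1.65 for MYBL2 (SE 0.27, adjusted p = 0.0062). CDK1 was at -1.09 (SE 0.21, adjusted p = 0.0083), and SPC24, with the lowest adjusted p of the list, at -1.48 (SE 0.19, adjusted p = 0.0033). All members fell in the Polo and Aurora (8), checkpoint and anaphase (9), cytokinesis (6), chromosome structure (7) and transcription factor (2) groups. CDC25B (-0.28), CENPE (-0.35), NDC80 (-0.36) and KIF18A (-0.27) did not pass, with adjusted p from 0.0698 to 0.192. With no medium term the fit of all 4 libraries called 50 members that fell, against 20.3% of all genes. Leaving out either control library in that form left 1 control library and ended every call, for the members and for the whole table. The median change of the members was then -0.94 without the control in PBS and -1.02 without that in DMS. Without the knockdown library in PBS 52 members fell, against 23.1% of all genes, and without that in DMS 51, against 33.5%.

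For DMS over both viruses limma called 0 members and 0 genes. At an unadjusted p under 0.05 there were 1 member, NDC80 (-0.37, SE 0.14, adjusted p = 0.372), and 1423 genes.

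Members with short loci had the lower ratios. Locus length is the span listed in the table, which can include a neighbour, and a row of another gene overlapped it in 12 members. The 19 members with the shortest loci (4.25 to 22.9 kb) had a median ratio in PBS of -1.69, with 17 at least 2-fold lower. The 19 in the middle (23.3 to 43.6 kb) had a median of -1.15 with 12 lower, and the 19 longest (45.1 to 211 kb) a median of -0.91 with 8 lower. Across the 57 genes the log10 locus length and the ratio had a Pearson r of 0.51 and a Spearman rho of 0.49, against 0.14 and 0.15 across all genes. The level moved with both, since the median of the mean FPKM was 44.8, 18.0 and 8.23 in the 3 classes, and log2 mean FPKM and the ratio had an r of -0.61 and a rho of -0.62. With a pseudocount of 0.1 the values for length were 0.46 and 0.44. Genes share libraries and are not replicates, and the part of the level in the relation with length was not tested.

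**Figure D5:**
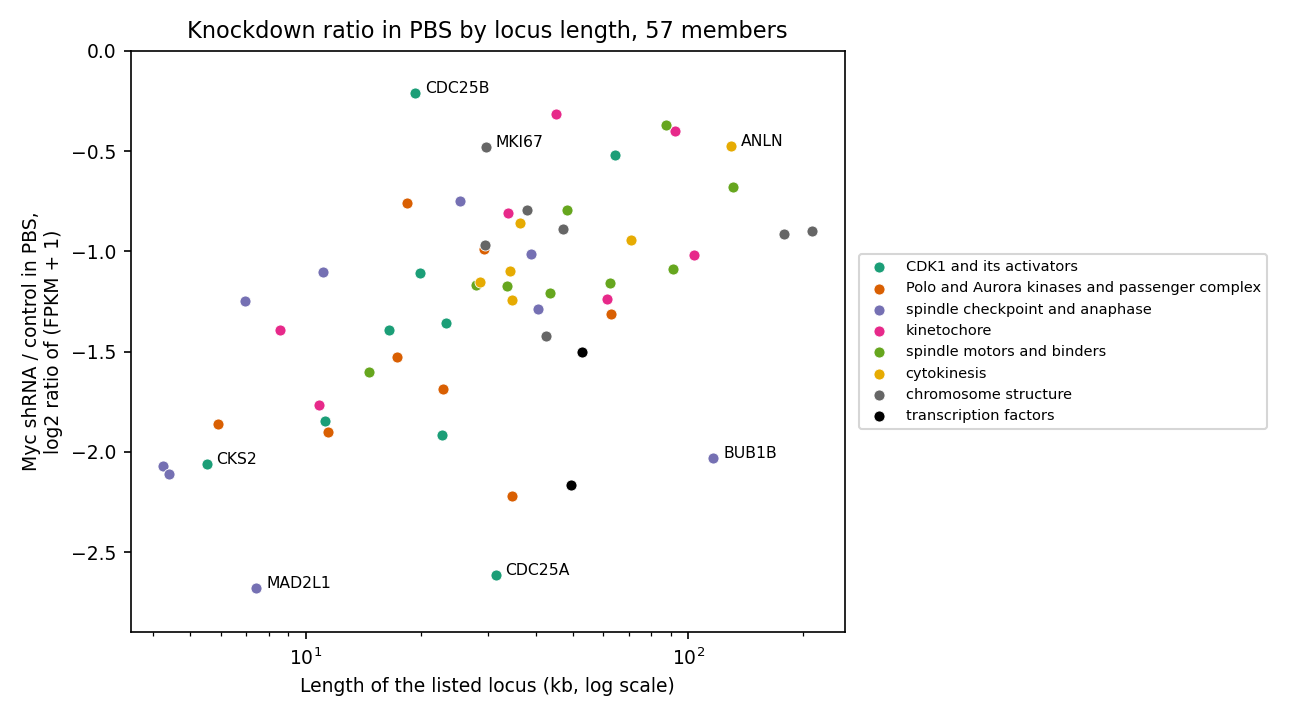
Log2 ratio of knockdown to control in PBS against the length of the listed locus (log axis, kb) for the 57 members, coloured by role. The shortest 19 loci have a median of -1.69 and the longest 19 a median of -0.91, with BUB1B (joint with PAK6) low at a long locus and CDC25B high at a short one.

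Other genes of the same machinery were read from lists that do not contain the members. Their counts stand against the shares of all genes given above, 17% at least 2-fold lower and 14.4% higher in PBS, and 27.8% that fell and 27.8% that rose by limma. In the other kinetochore and centromere genes 10 of 29 lay 2-fold or more below control in PBS and 0 above it (median -0.79), and limma called 19 that fell over both media and 0 that rose. The lowest was CENPH, an inner kinetochore subunit, at 32.4 FPKM in control PBS, 31.3 in control DMS, 5.73 in knockdown PBS and 15.5 in knockdown DMS. Among 29 other spindle, midzone and mitotic genes 16 were at least 2-fold lower and 0 higher (median -1.01), and 25 fell by limma. PBK, a mitotic kinase, was lowest there at 25.4, 23.2, 5.73 and 10.4 FPKM. All 3 genes of condensin II fell by limma, led by NCAPD3 (-1.55 in PBS).

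The anaphase-promoting complex and the cohesin lists had medians nearer 0, and the shares of their genes that were 2-fold lower or fell were nearer those of all genes. Of 17 subunits and regulators of the complex 4 were at least 2-fold lower in PBS (median -0.43), and 6 fell and 1 rose by limma. Its chain-elongating enzyme UBE2S was at 425, 444, 94.3 and 200.2 FPKM, while ANAPC16 was at 17.4, 18.1, 33.1 and 28.8 FPKM. Of 15 cohesin genes 1 was at least 2-fold lower (median -0.25), the cohesin protector sororin (CDCA5) at 55.9, 49.9, 18.0 and 24.0 FPKM, and 6 fell and 2 rose by limma. The list of MuvB, DREAM and NF-Y held 14 genes, not all of which bind the promoter elements searched here. Their median was -0.16 in PBS, and 6 fell and 1 rose by limma. The NF-Y genes NFYA, NFYB and NFYC were at 0.02, -0.90 and 0.25 in PBS. TFDP1, the dimer partner of E2F factors, was lowest at 156, 146, 53.1 and 83.2 FPKM (-1.54). The repressive pocket protein RBL2 was highest at 10.6, 9.31, 19.1 and 14.5 FPKM (0.79).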

How the data were processed

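RNA from 4 CA46 samples, 1 per group by their labels, was made into libraries with a NEBNext Ultra kit, per the labels' protocols. The authors deposited 1 column of FPKM per library for 31016 rows. The submitters' processing notes name bcl2fastq, fastp, Bowtie2 2.2.6, TopHat2 2.1.0, Cuffdiff 2.2.1, MACS 1.4.2, hg19 and dm6, with no role or order. Annotation, strand setting and scaling between libraries: not given in the sources used here. FPKM was read from fractional values whose low steps shrank with gene length, although a file title speaks of counts. No count test was run. The ChIP samples were not analysed here.

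Rows without a gene name (3919 rows, 14.3% to 25.2% of summed FPKM) and 2034 small RNA symbols were left out, rows of 1 symbol were summed (689 symbols), and genes whose mean over libraries reached 1 FPKM were kept. Rescaling used a trimmed mean of log ratios (both ends trimmed, by 30% for ratios and 5% for levels), with factors of 0.953 to 1.05. Ratios are log2(FPKM + 1), with a pseudocount of 1, so changes of low genes are understated. A 2-fold rule described pairs, which have no p-value. limma 3.58.1 in R 4.3.3 fitted virus and medium as additive terms with an intensity trend, and was tested on simulated data. Its p-values measure only spread around additivity, since a difference in DMS response between viruses enters the residual. Relative depth came from the low values of 126 to 212 genes, so no counting interval is given. Listed locus starts were raised by 1 to count from 1.

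Values were printed in full for the members with the highest mean and the lowest and highest knockdown ratio in PBS of each role, and for a set of widely used mitotic genes, with others added after their values were seen. The members and lists were chosen with earlier results of these data known. Alternatives were the deposited scaling, median of ratios, other pseudocounts, filters and folds, fits without the trend or the second term, each library left out and, chosen after seeing the data, the joint row left out.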

Additional observations from a re-analysis of the deposited data

Results flagged for a closer look

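In 3 members the ratio of DMS to PBS was above 0 in knockdown cells and below 0 in control cells, by at least 0.25 on the log2 scale in each. CDC25A was at 1.23 in knockdown cells and -0.26 in control cells. CENPF was at 0.34 and -0.29, and the low-abundance checkpoint kinase TTK was at 0.29 and -0.28. The difference was not tested, because an interaction term leaves no residual degree of freedom with 1 library per group. The same pattern in the same direction was seen in 118 genes, 1.05% of all genes that passed the filter. Without the minimum, 39 members were below 0 in control and above 0 in knockdown cells, against 23.8% of all genes.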

How the results depend on the processing

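No value past its threshold changed sign. Of the single ratios 1 changed sign, NCAPD2 for DMS in control cells, from 0.00 to -0.02 with the values as deposited. The members' median for DMS over both viruses in limma, which called 0 members, was 0.13. With no virus term it was -0.27 without the control in DMS and -0.51 without the knockdown in PBS. It was 0.75 without the control in PBS and 0.53 without the knockdown in DMS. With 1 library left out the viruses are unequal between the media, so the effects of medium and virus cannot be told apart there. Among counts that answer a comparison, the members lower in DMS moved by over 1.5 times (44 at 1.5-fold, against 17.1% of all genes). So did the members higher with DMS in knockdown cells (13 at 1.5-fold, against 12.9% of all genes). The limma calls also moved by over 1.5 times when either control library was left out, but not when either knockdown library was. Otherwise limma called 39 (no filter) to 54 (values as deposited) members that fell, against 8.18% and 32.4% of all genes in those fits. Over the whole table limma called 3113 genes that fell in the fit as described and 1356 with no filter. With the values as deposited the median of all genes moved to -0.13 in PBS and -0.10 in DMS. There 2226 genes were at least 2-fold lower and 1356 higher in PBS, and 674 lower and 911 higher in DMS, and the members' medians were -1.30 and -0.89. With a pseudocount of 0.1, the ratio in PBS was -2.87 for CDC25A and -1.37 for TTK. In the limma fits single members lost a call in 131 of their alternative values and gained a call in 2. A further 1771 values were counted as unchanged. These were limma calls that stayed the same and pairwise ratios that moved by at most 0.25, whichever side of 2-fold they fell on. No paired analysis was possible because groups of 1 library share no replicate numbers, and the medium term of the fit is the only matching of libraries. Without the joint row of BUB1B, the 2-fold counts were 36 and 13 of 56 members in PBS and DMS.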

Other observations

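Of 11 genes of the G2 checkpoint and CDK inhibitors, 4 lay 2-fold or more below control in PBS and 2 lay 2-fold or more above it. Their median ratio was -0.37, and limma called 5 that fell and 3 that rose over both media. Over all genes the shares were 17% lower and 14.4% higher in PBS and 27.8% for each direction by limma, so the genes higher or called as risen are near the background. PKMYT1, the membrane-bound kinase that inhibits CDK1, was at 38.0 FPKM in control PBS, 33.7 in control DMS, 8.86 in knockdown PBS and 14.0 in knockdown DMS. WEE1, the nuclear kinase with the same target, was at 25.8, 21.6, 19.7 and 16.2 FPKM, a ratio of -0.37 in PBS. The CDK inhibitors did not move alike. CDKN2D was at 26.5, 21.6, 78.7 and 58.5 FPKM, a ratio of 1.53 in PBS. CDKN1C was lower in the knockdown, at 4.06, 4.91, 1.45 and 2.83 FPKM, a ratio of -1.04 in PBS. CDKN2C was at 5.01, 5.30, 5.60 and 5.87 FPKM, a ratio of 0.14. CDKN1B (p27) was at 3.67, 4.10, 8.87 and 7.54 FPKM, and CDKN1A (p21) at 65.2, 80.6, 60.4 and 70.6 FPKM. CDKN1A thus differed little between viruses and was higher in DMS with both. WEE1, CDKN1A, CDKN1B, CDKN1C and CDKN2C were picked after their values were seen.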
